A study of Homo sapiens with 18 samples.

Results

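The comparison described here sets DG75 cells treated with Bay-11 against untreated DG75 cells. DG75 is a cell line grown from a Burkitt lymphoma, a B cell tumour, and does not carry the Epstein-Barr virus. The 3 treated samples had been exposed to 50 µM Bay-11 for 1 h, and the 3 control samples had been kept for the same 1 h without a compound. They were taken by their column names from a study of 18 bead arrays in 6 groups of 3, which also holds DG75 with 75 µM TPCK for 1 h and the same 3 conditions in Raji, an Epstein-Barr virus-positive Burkitt line. All 10697 genes that were tested in the study count as members. Each line stems from a single tumour. The labels leave unsaid whether replicates were cultured separately. Each p-value therefore reflects only how far the 18 arrays of the study spread within their groups, part of which may be technical.

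NF-kB is a family of dimeric transcription factors that includes RELA, RELB, REL, NFKB1 and NFKB2. In resting cells the dimers are held in the cytoplasm by inhibitors such as NFKBIA, and phosphorylation of the inhibitor by the IKK kinases leads to its destruction and frees the dimer. In B cells the pathway carries signals from the antigen receptor, CD40 and Toll-like receptors, and it drives chemokine, survival and feedback genes. Bay-11 is used as an inhibitor of this phosphorylation step and is also known to react with thiol groups of many proteins.

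Arrays are named by the number that begins each column name, which is 10, 11 and 12 for Bay-11 and 13, 14 and 15 for control. All control arrays of the study are numbered 13 to 18 and all treated arrays 1 to 12. What the number stands for is not stated, and an order or batch behind it cannot be told apart from treatment. Mean raw signal ran from 182.1 to 235.1 on the control arrays and from 209.9 to 273.3 on the Bay-11 arrays, and 13710 to 15903 probes were detected per array. Precision is limited by having 3 arrays per group. Of 44 measured genes of B cell identity 42 were detected, and 0 passed the test, beside 0.617% of all genes tested. Defining markers of other cells were mostly not measurable, with 4 of 19 T and NK cell genes, 5 of 12 monocyte genes, 3 of 12 erythroid genes and 4 of 17 fibroblast and epithelial genes among the genes tested, and 0 of these passed the test. The summed linear signals of these lists overlapped between the groups, for T and NK cells at 252.7 to 371.0 on control and 309.7 to 384.7 on Bay-11 arrays and for monocytes at 299.1 to 373.0 and 263.9 to 359.6. They overlapped likewise for erythroid cells, at 64.5 to 77.5 on control and 58.6 to 79.0 on Bay-11 arrays, and for fibroblasts and epithelium, at 87.5 to 112.6 and 91.6 to 100.8.

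One Bay-11 array stood apart. On array 10, 208 probes that were bright on the control arrays (log2 over 8) lay more than 2 log2 units below the control mean, against 0 on arrays 11 and 12. Detected probes more than 2 log2 units above the control mean numbered 24 on array 10, 4 on array 11 and 1 on array 12. CXCR4, the receptor of the chemokine CXCL12, read 4.77 on array 10 against 10.46 and 10.56 on arrays 11 and 12 and a control mean of 10.62. In all, 165 tested genes were over 2 log2 units lower on array 10 than the mean of the other two, and 0 were as far above it. Of the 165, 0 were called, but their large spread among the Bay-11 arrays, by which they were picked, made a call unlikely. Array 10 correlated over genes with arrays 11 and 12 at 0.956 and 0.953, while arrays 11 and 12 correlated at 0.985 with each other and the control arrays at 0.990 to 0.992. Results are therefore given with all 6 arrays and again without array 10.

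After 1 h of Bay-11 the largest called rises in DG75, among probes with a gene symbol, were of the small non-coding RNAs SNORD46 and RNU11. The largest called falls were of chemokine and activation genes. The small nucleolar RNA SNORD46 rose 7.31-fold, and RNU11, the U11 RNA of the minor spliceosome that removes a rare class of introns, rose by 2.20 log2 units. The chemokine CXCL8 fell by 1.48 log2 units, the chemokine CCL3L3 by 1.24 and the early activation marker CD69 by 1.15. Among mRNAs called with and without array 10, TMEM107 rose by 2.01. TINF2, a component of the shelterin complex on telomeres, and PLEKHF1, an endosomal phosphoinositide-binding protein, each rose by 1.24. EPOR (at least 1.94-fold) and ZSWIM3 (1.32) rose as well but were called with all arrays only. In total 66 genes changed at an adjusted p under 0.05 (0.617% of genes tested), 47 of them up (0.439%) and 19 down (0.178%), and 14 changed by over 2-fold, 10 up and 4 down, with genes undetected in a group taken at their bound.

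The 3 Bay-11 arrays lay wholly above or wholly below the 3 control arrays in all 66, as they did in 2063 of all genes (19.3%). At an unadjusted p under 0.05, 2025 genes differed. Without array 10 the test called 27 genes (0.252%), 14 up (0.131%) and 13 down (0.122%), and 1100 at an unadjusted p under 0.05. Of these 27, 23 were also called with all arrays, 12 up and 11 down. That 0 of the 66 changed sign follows almost wholly from their separate groups and is no check. The count depended on single arrays throughout, with 38 without array 11, 1053 without array 12, 21 without array 13, 15 without array 14 and 38 without array 15. All 66 genes were among the 1053, which made up 9.84% of genes tested. A call gained only without array 12 therefore sets a gene little apart. Fitted on the 6 compared arrays alone, without the shared estimate of spread from the other 12 arrays, the test called 4 genes, SNORD46, RNU11, TMEM107 and PLEKHF1, all higher. Those 4 and 2 further genes, CCL3L3 (-1.48) and SNORD14C (1.48), were called in the same fit without array 10.

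The split between rises and falls depended on the scaling. Quantile normalization gave a median change of all genes of 0.05 and 71.2% of calls higher. When arrays were centred on their medians instead, the median gene changed by 0.34, and 268 genes were called higher and 3 lower (98.9% higher). Among named falls, CXCL8, CLOCK and SYT16 stayed called under median centring. The falls of CD69, CCL3L3, NFKBIZ, SGK1, TIPARP, DUSP10, KBTBD8, GPR18, ZNF800 and SLC71A1 did not. Without normalization between arrays, 10 genes were called higher and 0 lower. Of 34 called genes that were followed through all settings, 0 changed direction. For the fits that left out single arrays, this follows almost wholly from their separate groups.

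**Figure D1:**
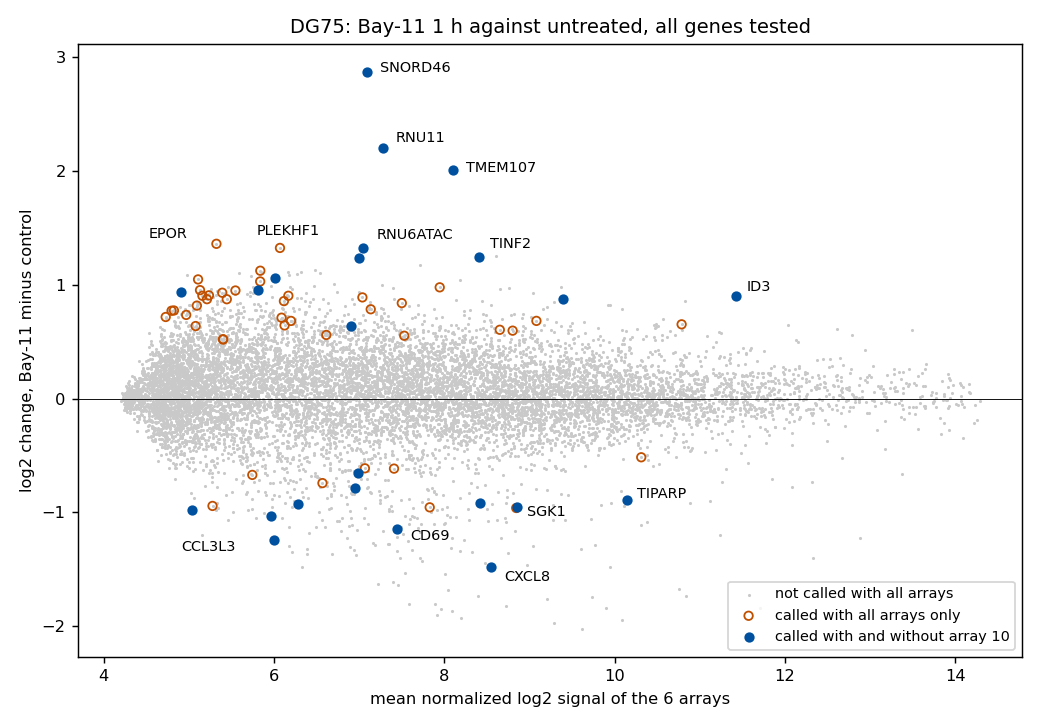
Each point is 1 of the 10697 genes tested, with the mean normalized log2 signal of the 6 DG75 arrays on the horizontal axis and the log2 change (Bay-11 minus control) on the vertical axis. Filled blue points are the 23 genes called with and without array 10, open orange circles the 43 called with all arrays only, and many of the orange circles above 0 lie at the dim end.

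The NF-kB targets held the 3 largest called falls among probes with a gene symbol, but few of them passed the test. Of 52 measured targets 4 fell (CXCL8, CCL3L3, CD69 and NFKBIZ), 0 rose and 48 did not pass the test, against 0.178% of all genes that fell and 0.439% that rose. The list's median change was -0.01, against 0.05 for all genes, and its members ran from -1.48 to 0.99. Without array 10, 3 fell and 0 rose. This list and the others below were drawn up with earlier results from these arrays known, so their counts are descriptions.

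CXCL8 encodes interleukin-8, a chemokine that attracts neutrophils. Its normalized log2 signal was 9.33, 9.07 and 9.47 on control arrays 13, 14 and 15 and 7.89, 7.61 and 7.93 on Bay-11 arrays 10, 11 and 12. All 3 Bay-11 arrays lay more than 1 log2 unit below the lowest control array, and array 10 lay between the other two. The change was -1.48 ± 0.19 (SE, n = 3 per group, adjusted p = 0.000908), and it was -1.51 without array 10 (adjusted p = 0.00252). A further, dimmer probe of CXCL8 gave -1.38 ± 0.17. These arrays measure bulk RNA, in which fewer cells with a transcript and less RNA per cell cannot be told apart.

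CCL3L3, a CCL3-like chemokine of macrophages and lymphocytes, read 6.74, 6.56 and 6.58 on the control arrays and 5.86, 5.15 and 5.14 on the Bay-11 arrays. Array 10 was the Bay-11 array nearest to control. The change was -1.24 ± 0.23 (adjusted p = 0.0237) with all arrays and -1.46 without array 10 (adjusted p = 0.00693). The call was lost when array 11, 13, 14 or 15 was left out, with an adjusted p of up to 0.117. CCL3L3 is nearly identical to other CCL3 copies, and signal from them could not be separated.

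CD69, a lectin-like membrane protein that appears early on activated lymphocytes, read 7.90, 8.13 and 8.04 on control and 6.89, 7.03 and 6.71 on Bay-11 arrays. The groups were separated by 0.87 log2 units or more. Its change was -1.15 ± 0.18 (adjusted p = 0.00747), and -1.14 without array 10 (adjusted p = 0.0255). Leaving out array 14 raised the adjusted p to 0.0581. A dimmer CD69 probe gave -0.24 ± 0.17 and was not called.

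NFKBIZ is a nuclear member of the IkB family that modifies NF-kB transcription. It was the only called member among 45 measured pathway components, beside 0.617% of all genes called. It read 10.55, 10.63 and 10.53 on control and 10.02, 9.95 and 10.18 on Bay-11 arrays, a small but separate difference of -0.52 ± 0.10 (adjusted p = 0.0362). Without array 10 it missed the threshold at -0.50 (adjusted p = 0.0912), as it did without array 11, 13, 14 or 15 (highest adjusted p = 0.154). A further, dimmer NFKBIZ probe gave -0.05 ± 0.18. The median change of the 45 components was 0.14, and 0.03 without array 10.

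The inhibitor gene NFKBIA, itself a target of NF-kB in a feedback loop, was bright and did not pass the test. It read 12.09, 12.36 and 12.15 on control and 11.52, 11.03 and 11.93 on Bay-11 arrays, so the groups did not overlap but the Bay-11 arrays spread over 0.90 log2 units. The change was -0.71 ± 0.19 (adjusted p = 0.0939). Without array 12, a fit that called 9.84% of all genes, NFKBIA was called at -0.92 (adjusted p = 0.0124). It was not called when array 10, 11, 13, 14 or 15 was left out. TNFAIP3, the ubiquitin-editing inhibitor A20, changed by -0.16 ± 0.22 (adjusted p = 0.741).

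The subunits themselves were not called. NFKB2, which encodes p100 and p52, read 5.67, 5.76 and 6.48 on control and 7.14, 7.19 and 6.55 on Bay-11 arrays, with control array 15 close to Bay-11 array 12. Its change of 0.99 ± 0.22 had an adjusted p of 0.0544, 0.209 without array 10, and it was called without array 12 (1.19, adjusted p = 0.0124) and without array 15 (1.25, adjusted p = 0.0200). RELA, which encodes p65, read 6.14 and 6.05 on arrays 11 and 12 and 4.20 on array 10, against 6.13 to 6.24 on control arrays. Its change was -0.72 ± 0.35 with array 10 and -0.08 without it (adjusted p = 0.915). RELB (0.52 ± 0.35), NFKB1 (0.08 ± 0.11) and REL (-0.01 ± 0.17) did not pass the test. Among NF-kB dependent survival genes, BCL2A1 changed by -0.76 ± 0.21 (adjusted p = 0.0962), BCL2L1 by 0.17 ± 0.17 and XIAP by -0.04 ± 0.24, and none of these was called.

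The start regions of 3 of these inhibitor and chemokine genes are shown because they hold matches to the kappa B motif, the DNA sequence that NF-kB dimers bind. The sequences are RefSeq promoters of build GRCh38.p14, 250 bases before to 50 after the annotated start, read 5′ to 3′ on the gene's strand. Capitals mark matches, on either strand, to kappa B (GGNNTTTCC, N being any base) or AP-1 (TGANTCA), and no 2 matches overlap. CXCL8 lies at chr4:73740319-73740618 on the plus strand, NFKBIZ at chr3:101827740-101828039 on the plus strand and NFKBIA at chr14:35404700-35404999 on the minus strand.
CXCL8: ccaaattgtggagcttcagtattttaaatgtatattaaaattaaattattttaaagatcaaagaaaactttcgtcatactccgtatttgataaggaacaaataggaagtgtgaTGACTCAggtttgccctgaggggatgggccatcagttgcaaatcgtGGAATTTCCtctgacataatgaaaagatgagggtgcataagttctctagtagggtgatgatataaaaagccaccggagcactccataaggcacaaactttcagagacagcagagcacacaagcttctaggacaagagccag
NFKBIZ: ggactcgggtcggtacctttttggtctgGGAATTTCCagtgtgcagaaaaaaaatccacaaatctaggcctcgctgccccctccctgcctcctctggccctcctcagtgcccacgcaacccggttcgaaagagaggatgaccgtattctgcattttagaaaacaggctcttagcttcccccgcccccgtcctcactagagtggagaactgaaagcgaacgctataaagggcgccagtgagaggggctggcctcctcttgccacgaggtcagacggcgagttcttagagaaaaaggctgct
NFKBIA: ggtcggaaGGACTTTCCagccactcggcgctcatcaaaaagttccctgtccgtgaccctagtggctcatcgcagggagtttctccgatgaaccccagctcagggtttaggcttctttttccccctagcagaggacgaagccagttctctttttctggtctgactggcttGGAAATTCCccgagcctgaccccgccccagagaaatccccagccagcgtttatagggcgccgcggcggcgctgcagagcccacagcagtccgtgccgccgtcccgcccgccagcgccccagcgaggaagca
In CXCL8 the kappa B match began 91 bases before the start and the AP-1 match 137 bases before it. NFKBIZ had 1 kappa B match, 222 bases before the start, and NFKBIA had 2, at 242 and 81 bases before it. The same window of CCL3L3, at chr17:36196709-36197008 on the minus strand, held a match to neither motif. The windows of NFKB2, SGK1, TIPARP, ID3, TINF2 and PLEKHF1 were also searched and held a match to neither. Of all 35116 promoters of this length 6.26% held a kappa B match and 7.71% an AP-1 match, and among 8746 tested genes with a promoter the shares were 6.99% and 4.32%. Of 17 genes called lower that had a promoter in the table, 2 held a kappa B match (11.76%) and 1 an AP-1 match, and of 34 called higher 2 held a kappa B match (5.88%) and 1 an AP-1 match. A match is a description of the letters and not of binding.

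The list of immediate early and short-lived mRNAs, which cells make quickly and without new protein synthesis, had 3 falls and 1 rise among 46 measured genes, against 0.178% and 0.439% of all genes. Its median change was -0.12, and -0.056 without array 10. The falls were SGK1, TIPARP and DUSP10, and the rise was ID3. SGK1, a kinase induced by serum and glucocorticoids, read 9.35, 9.35 and 9.28 on control and 8.66, 8.18 and 8.28 on Bay-11 arrays. All Bay-11 arrays were below all controls, array 10 least so. The change was -0.95 ± 0.14 (adjusted p = 0.00268) and -1.09 without array 10 (adjusted p = 0.000549). TIPARP, an ADP-ribosyltransferase induced through the aryl hydrocarbon receptor, read 10.73, 10.70 and 10.36 on control and 9.78, 9.67 and 9.65 on Bay-11 arrays. The lowest control array lay 0.57 above the highest Bay-11 array, the change was -0.89 ± 0.12 (adjusted p = 0.00158) and it was -0.93 without array 10 (adjusted p = 0.00252).

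DUSP10, a phosphatase of the stress kinases p38 and JNK, was dim, at 5.76, 5.69 and 5.79 on control and 4.51, 4.85 and 5.05 on Bay-11 arrays, and was detected on only 2 of the latter. Its change was -0.94 ± 0.18 (adjusted p = 0.0267). It was called without array 12 and lost without any other of the 6 arrays, with an adjusted p of up to 0.117. The classical early genes did not pass the test. FOSB changed by -0.46 ± 0.16 (adjusted p = 0.161, and 0.0294 without array 12), EGR1 by -0.22 ± 0.24, FOS by -0.18 ± 0.30, JUN by -0.14 ± 0.20, ATF3 by 0.31 ± 0.21 and MYC by 0.37 ± 0.15 (adjusted p = 0.202).

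ID3, an inhibitor of E2A-type transcription factors that is often mutated in Burkitt lymphoma, was the brightest of the called rises. It read 11.02, 10.77 and 11.14 on control and 11.78, 12.08 and 11.76 on Bay-11 arrays. The groups were 0.62 log2 units apart at their nearest arrays. The change was 0.90 ± 0.14 (adjusted p = 0.00536), and 0.95 without array 10 (adjusted p = 0.00931), and leaving out array 14 gave an adjusted p of 0.0520. Of 8 measured genes of the ID family and E2A targets, ID3 alone was called, beside 0.617% of all genes.

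**Figure D2:**
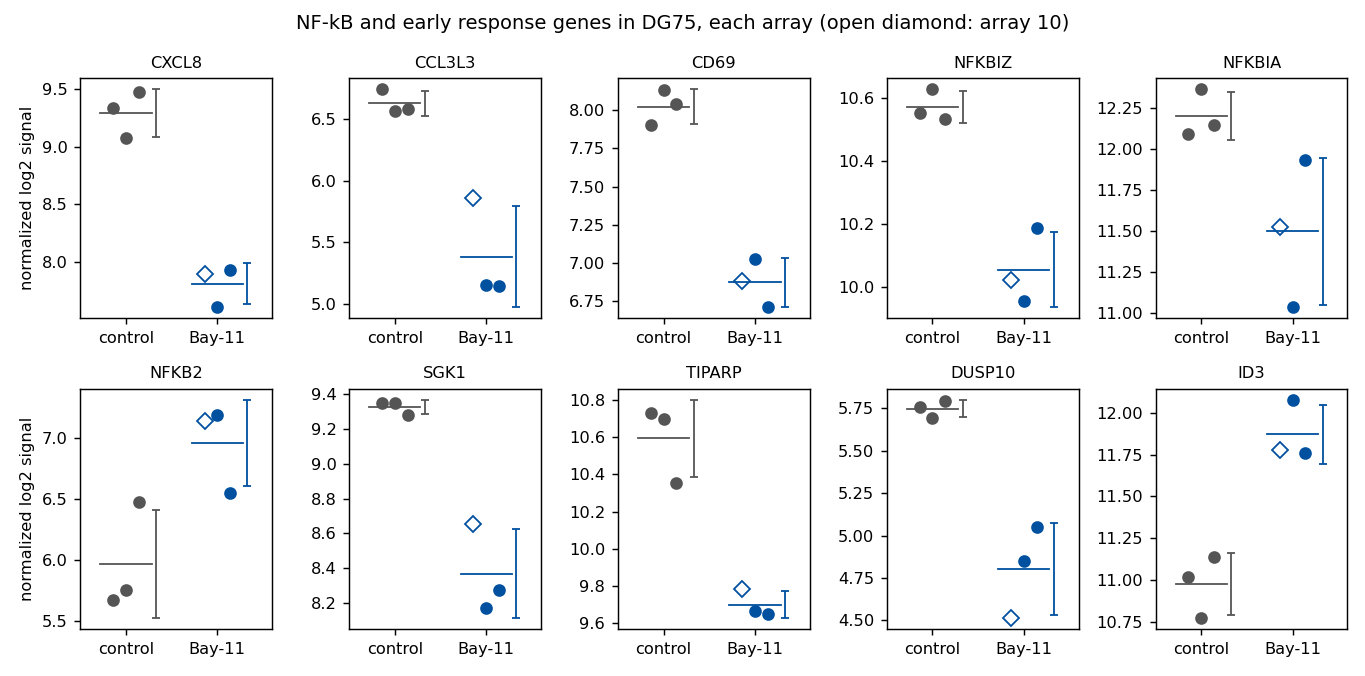
Normalized log2 signal of 10 genes on each control array (grey) and Bay-11 array (blue, with array 10 as an open diamond). Horizontal lines are group means and vertical bars are ± 1 SD (n = 3), and the 2 groups do not overlap in any panel, although NFKBIA and NFKB2 did not pass the test.

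The small non-coding RNAs SNORD46 and RNU11 had the largest called rises among probes with a gene symbol. Box C/D small nucleolar RNAs guide methylation of ribosomal and spliceosomal RNA, and most are cut from introns of genes for ribosomal proteins or other host transcripts. Of 36 measured box C/D RNAs 6 rose and 0 fell, against 0.439% of all genes that rose, with a median of 0.23 and a range from -0.99 to 2.87. Without array 10, 4 rose and 0 fell. Of 11 measured H/ACA and Cajal body RNAs, which guide pseudouridylation or act in the Cajal body, 0 were called, beside 0.617% of all genes. Their median was -0.17, but -0.052 without array 10, 0.058 among the 10 detected on all 3 arrays of a group and 0.25 with median centring, so it has no settled direction. It was not tested if these probes detect the mature RNA or precursor transcripts.

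SNORD46 read 5.64, 5.53 and 5.79 on control and 8.69, 8.26 and 8.62 on Bay-11 arrays. Every Bay-11 array was over 2 log2 units above every control array. The change was 2.87 ± 0.16 (adjusted p = 3.19e-08) and 2.75 without array 10 (adjusted p = 3.56e-07), and it was called in each fit that left out 1 array. SNORD55 read 5.34, 5.56 and 5.11 on control and 6.12, 6.41 and 6.35 on Bay-11 arrays and rose by 0.96 ± 0.14 (adjusted p = 0.00408). SNORD38B (0.92 ± 0.24) and SNORD38A (0.40 ± 0.13) were not called.

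Neighbours within 1 host differed in whether they passed the test. SNORD35A, within RPL13A, rose by 0.84 ± 0.17 (adjusted p = 0.0378, and 0.0509 without array 10), while SNORD34, SNORD33 and SNORD32A of the same gene changed by 0.83 ± 0.22, 0.29 ± 0.15 and -0.53 ± 0.26 and were not called, SNORD32A at -0.14 without array 10. RPL13A itself changed by -0.08 ± 0.12. SNORD43, within RPL3, rose by 1.06 ± 0.16 (adjusted p = 0.00534), from 5.42, 5.41 and 5.63 to 6.64, 6.58 and 6.41, and RPL3 changed by -0.12 ± 0.10. SNORD21, within RPL5, rose by 0.89 ± 0.18 (adjusted p = 0.0383), and the call was lost without array 10 (adjusted p = 0.122) and without array 11, 13 or 14 (highest adjusted p = 0.172), while RPL5 changed by -0.03 ± 0.13. SNORD15B, within RPS3, rose by 0.64 ± 0.13 (adjusted p = 0.0349), and RPS3 changed by -0.31 ± 0.17.

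Over all 53 measured small RNAs, 34 lay within a gene that was also tested. Of their 20 distinct host genes 0 were called, beside 0.617% of all genes, a share at which 20 genes would hold few or none. The hosts had a median change of -0.10 and ran from -1.22 to 0.43. All 53 small RNAs had a median of 0.25, but 19 of them lay in no tested gene, so the medians cover unlike sets. Of the 8 small RNAs that rose, 4 lay within a tested host. For the others, SNORD46, SNORD55, RNU11 and RNU6ATAC, no host was tested. The lowest host, RPS2, was one of the genes that array 10 alone read low, and without array 10 the hosts ran from -0.31 to 0.24 with a median of -0.05. The 73 measured cytosolic ribosomal protein genes had 0 calls, also near the share of all genes, and a median of -0.04. Small RNAs with near-identical copies, such as those of the SNORD14 family (SNORD14C 1.25 ± 0.29, SNORD14D -0.71 ± 0.29 and -0.21 without array 10, neither called), cannot be assigned with certainty to 1 copy.

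**Figure D3:**
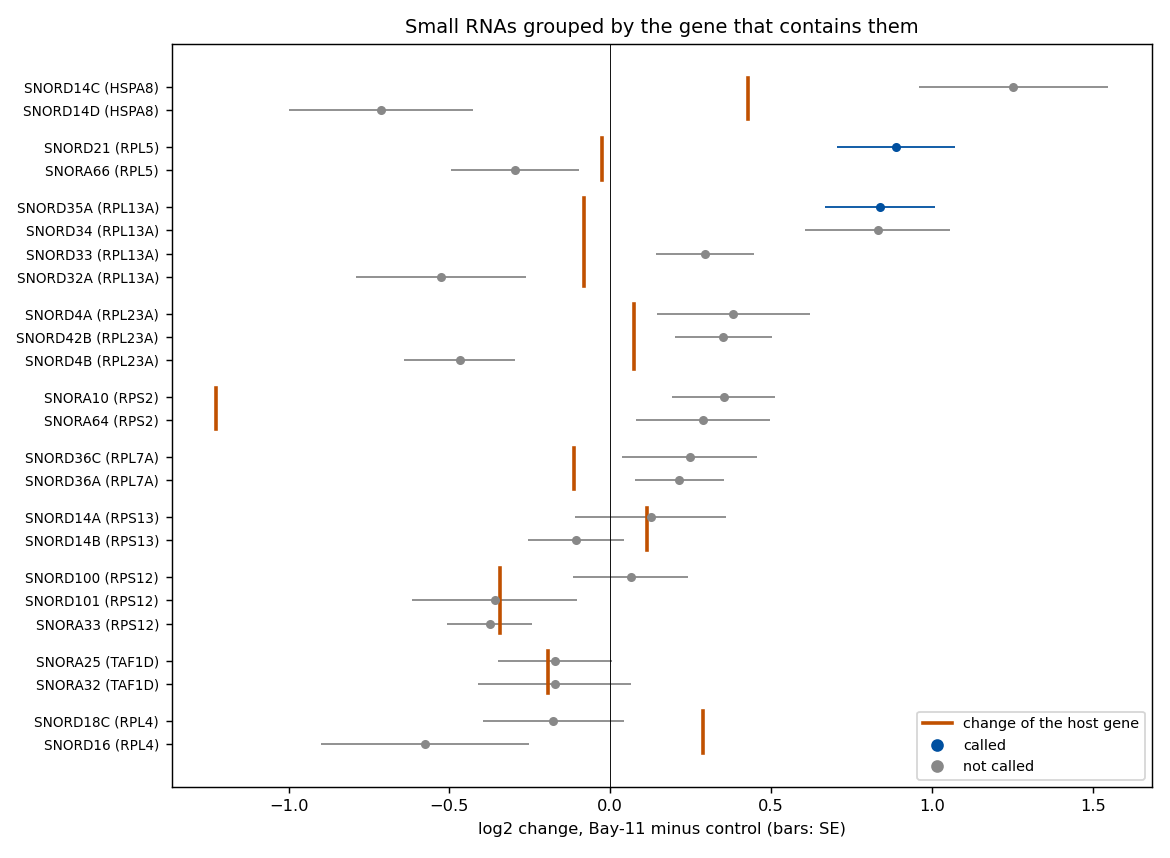
Log2 change (Bay-11 minus control, bars ± SE of the fit) of small RNAs whose host gene was tested and contains at least 2 of them, grouped by host in brackets. Blue marks called genes and the orange lines give the change of the host gene, which lies near 0 for RPL13A and RPL5.

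RNAs of the minor spliceosome were the other small RNAs that rose. RNU11 read 6.02, 6.21 and 6.31 on control and 8.52, 8.31 and 8.32 on Bay-11 arrays, 1.99 log2 units apart at their nearest arrays. The change was 2.20 ± 0.19 (adjusted p = 1.25e-05) and 2.10 without array 10. RNU6ATAC, the U6atac RNA of the same spliceosome, read 6.52, 6.19 and 6.45 on control and 7.75, 7.55 and 7.83 on Bay-11 arrays, a change of 1.32 ± 0.13 (adjusted p = 8.81e-05) and 1.29 without array 10. Of the 5 small nuclear and other abundant small RNAs measured these 2 rose, against 0.439% of all genes. RN7SK (0.43 ± 0.17), RPPH1 (0.33 ± 0.18) and RN7SL1 (-0.02 ± 0.19) were not called.

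TMEM107, a membrane protein of the ciliary transition zone, was the other gene with a rise of over 2 log2 units. It read 7.22, 6.99 and 7.09 on control and 9.14, 9.16 and 9.03 on Bay-11 arrays, and the groups were far apart. The change was 2.01 ± 0.28 (adjusted p = 0.00263), and 1.97 without array 10 (adjusted p = 0.00931). By the reference gene table SNORD118, the U8 RNA needed for processing of ribosomal RNA, lies within TMEM107. A further TMEM107 probe, dimmer, gave 0.33 ± 0.15 and was not called, and which transcript the bright probe reads was not tested.

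Among protein-coding genes, some rises were called with and without array 10, and more were called only with it. TINF2 read 7.70, 7.87 and 7.79 on control and 9.17, 8.88 and 9.05 on Bay-11 arrays, a change of 1.24 ± 0.13 (adjusted p = 0.000129). PLEKHF1 read 6.43, 6.39 and 6.31 on control and 7.54, 7.62 and 7.68 on Bay-11 arrays, a change of 1.24 ± 0.13 (adjusted p = 9.88e-05). In both genes the Bay-11 arrays stood over 1 log2 unit above the controls, and both were called in each fit that left out 1 array. The zinc finger gene ZNF581 read 9.01, 8.73 and 9.12 on control and 10.19, 9.75 and 9.55 on Bay-11 arrays, highest on array 10, and rose by 0.88 ± 0.15 with it and by 0.70 without it (adjusted p = 0.0288), with the call lost without array 14 (adjusted p = 0.0730).

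EPOR, the erythropoietin receptor gene, was among the rises called with all arrays only. It was not detected on any control array (4.41, 4.84 and 4.67) and read 6.82, 5.84 and 5.35 on Bay-11 arrays, highest on array 10. The rise was at least 1.94-fold (adjusted p = 0.0362), and it was not called without array 10 (adjusted p = 0.0912). ZSWIM3 (1.32 ± 0.25), ZNF75D (1.12 ± 0.23), the ion transport kinase WNK4 (1.03 ± 0.20) and the AMPK-related kinase NUAK2 (at least 1.501-fold, undetected on control arrays) had adjusted p from 0.0237 to 0.0386 with all arrays and from 0.0912 to 0.159 without array 10. Each of these 5 read highest on array 10. Further, uncalled probes gave 0.28 ± 0.16 for ZSWIM3, 0.43 ± 0.23 for ZNF75D and 0.14 ± 0.21 for NUAK2. The EPOR call was also lost when array 11, 13, 14 or 15 was left out (adjusted p up to 0.146), and the other 4 calls were also lost without array 14 and at least 1 more of arrays 11, 13 and 15 (highest adjusted p = 0.174).

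Of the 47 rises 35 were called with all arrays only, at a median control level of 5.28, while the 12 that were called both ways had a median control level of 6.38. Array 10 was the highest of the Bay-11 arrays in 35 of the 47, a larger share than the 52.4% among all genes. Of the 47, 13 were detected on no control array. The part of array 10 in these rises beyond these values was not tested. List members among them were the histone genes H3C12 (at least 1.37-fold) and H4C2 (at least 1.22-fold), the inducible heat shock gene HSPA1B and the clock-controlled factor TEF (0.71 ± 0.14). The 35 measured replication-dependent histone genes had a median of 0.18 (0.085 without array 10). Of these 35, 2 rose (0 without array 10) and 0 fell, against 0.439% of all genes that rose. HSPA1B, which is nearly identical to HSPA1A, read 10.41, 10.32 and 10.65 on control and 11.02, 11.16 and 11.16 on Bay-11 arrays, a change of 0.65 ± 0.14 (adjusted p = 0.0428, and 0.0766 without array 10). The calls of HSPA1B, TEF and both histone genes were lost when array 10, 11, 13 or 14 was left out (adjusted p up to 0.182). HSPA1B was the only call among 35 measured heat shock genes, beside 0.617% of all genes called, and a single call says little about the list. DNAJB1, a co-chaperone that is induced with HSPA1B, changed by 0.14 ± 0.20.

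**Figure D4:**
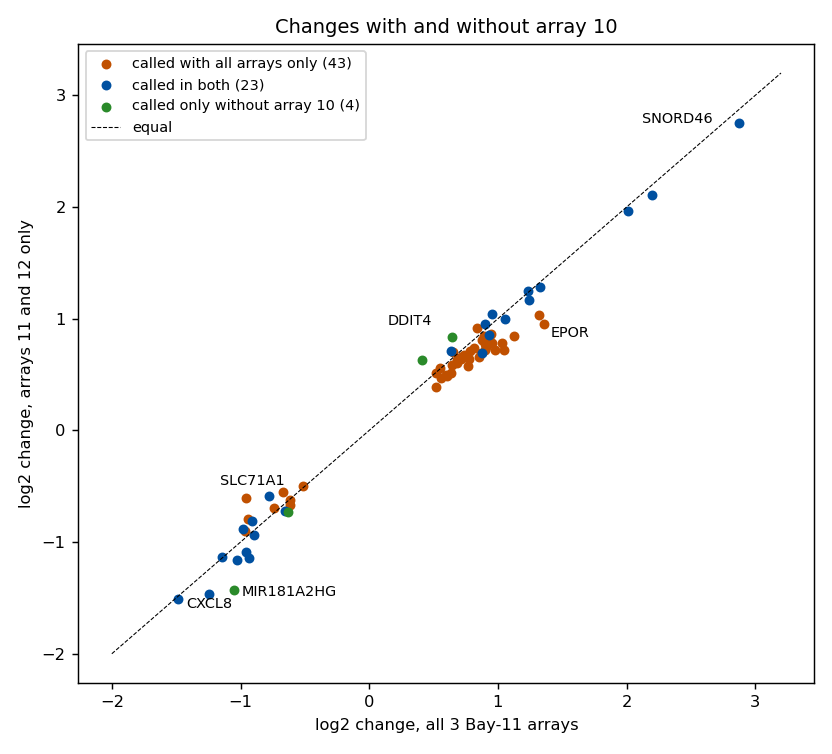
Log2 change of every gene called with all arrays, without array 10 or both, with all 3 Bay-11 arrays on the horizontal axis and arrays 11 and 12 alone on the vertical axis. All genes keep their sign, which follows almost wholly from separate groups in the genes called with all arrays. Most of the 43 genes in orange that rose lie below the dashed line of equal values.

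The remaining falls were of genes with varied roles. ZNF800, a zinc finger gene, read 8.89, 8.90 and 8.83 on control and 7.76, 8.17 and 7.94 on Bay-11 arrays and fell by 0.91 (SE 0.14, adjusted p = 0.00536). GPR18, a G protein-coupled receptor of lymphocytes, read 6.64, 7.04 and 6.55 on control and 6.26, 5.61 and 5.56 on Bay-11 arrays, with array 10 nearest to control, and changed by -0.93 ± 0.18 (adjusted p = 0.0280) and by -1.14 without array 10. Its call was lost when array 11, 13 or 14 was left out (adjusted p up to 0.154). KBTBD8, a substrate adaptor of a cullin ubiquitin ligase, changed by -0.96 ± 0.16 (adjusted p = 0.0138) and missed the threshold without array 10 (adjusted p = 0.0509), array 13 or array 14 (highest adjusted p = 0.0839).

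CLOCK, a transcription factor of the circadian oscillator, changed by -1.03 ± 0.20 (adjusted p = 0.0256) on its brighter probe and by 0.29 ± 0.21 on another, so its probes disagree in sign, and the call was lost when array 11, 14 or 15 was left out (adjusted p up to 0.149). The same held for TLR6, a Toll-like receptor subunit, at -0.66 ± 0.12 (adjusted p = 0.0237) and 0.45 ± 0.19. SYT16, a synaptotagmin family gene, was detected on no Bay-11 array and was at least 1.46-fold lower (adjusted p = 0.00845, and 0.0659 without array 13). SLC71A1, a membrane transporter gene, read 6.66 on array 10 against 7.82 and 7.56 on arrays 11 and 12, and its change of -0.96 ± 0.21 (-0.41 ± 0.22 on a further, uncalled probe) became -0.61 without array 10 (adjusted p = 0.0701) and was also not called without array 13, 14 or 15.

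Only 4 genes were called when array 10 was left out and not with it. DDIT4, an inhibitor of mTORC1 that is induced by stress, rose by 0.84 (adjusted p = 0.00931), with 9.55 and 9.34 on arrays 11 and 12, 8.83 on array 10 and 8.56 to 8.64 on control arrays. TICAM1, the adaptor TRIF of Toll-like receptor 3 signalling, rose by 0.63 (adjusted p = 0.0316). MIR181A2HG, the host transcript of miR-181 genes, read 4.62 and 5.14 on arrays 11 and 12, 6.04 on array 10 and 6.28 to 6.37 on control arrays, and changed by -1.43 (adjusted p = 0.000842). EYA3, a phosphatase and transcriptional cofactor, changed by -0.73 (adjusted p = 0.0481).

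Most lists of stress, death and growth genes held no call, beside 0.617% of all genes, a share at which lists of this size would hold few or none. None of 27 p53 targets, 35 NRF2 and glutathione genes, 39 genes of ATF4 and the unfolded protein response, 15 metallothionein and zinc transporter genes, 28 caspases and regulators and 13 pro-apoptotic BCL2 family genes passed limma's test with all arrays, with list medians from -0.06 to 0.09, and from -0.09 to 0.085 without array 10. Without array 10, 1 gene of these was called, DDIT4 of the ATF4 list. The p53 target CDKN1A, a cell cycle inhibitor, changed by 0.25 ± 0.13 (adjusted p = 0.306) and GADD45A by -0.21 ± 0.15. The NRF2 targets HMOX1 (0.26 ± 0.21), GCLM (-0.14 ± 0.15) and TXNRD1 (0.57 ± 0.29) were not called, although TXNRD1 was without array 12 (0.91, adjusted p = 0.0483). The anti-apoptotic genes MCL1 (0.52 ± 0.24) and BCL2 (0.59 ± 0.16, adjusted p = 0.0962, and 0.0350 without array 12) were not called, nor were the metallothionein gene MT2A (-0.06 ± 0.22), the zinc exporter gene SLC30A1 (-0.47 ± 0.22) and the pro-apoptotic BMF (0.39 ± 0.26).

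The lists of 34 interferon-stimulated genes, 30 genes of RNA polymerase I and ribosome biogenesis, 34 cell cycle and E2F genes, 10 genes of the MYC network and 23 hypoxia genes likewise had 0 calls with all arrays, at medians from -0.01 to 0.16, and from -0.06 to 0.08 without array 10. Of 311 ZNF genes 3 rose (ZNF75D, ZNF581 and the dim ZNF333, at least 1.10-fold) and 1 fell (ZNF800), against 0.439% and 0.178% of all genes, so near the background. Their median was 0.08 with array 10 and 0.01 without it, and without it 1 rose and 1 fell.

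**Figure D5:**
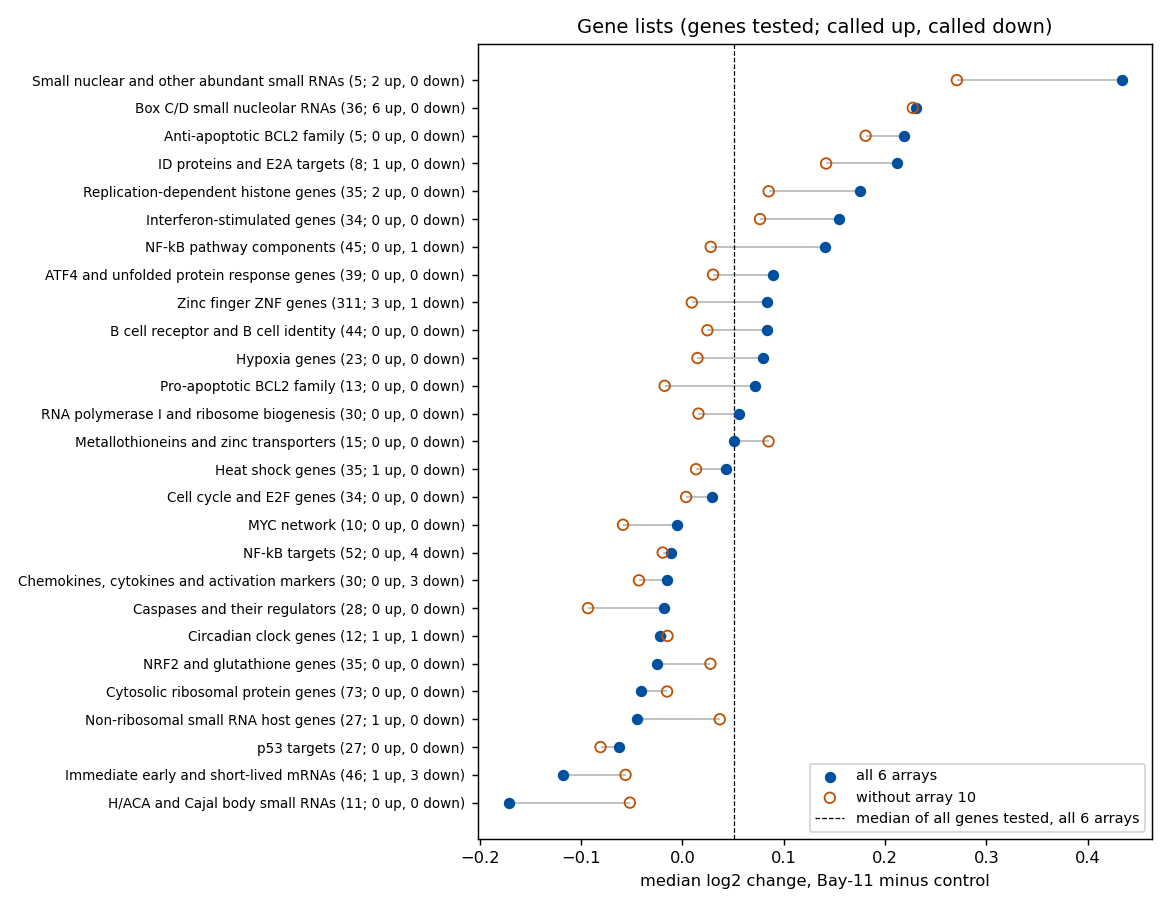
Median log2 change (Bay-11 minus control) of each gene list with all 6 arrays (filled) and without array 10 (open), with the number of genes tested and called in brackets. The dashed line is the median of all genes tested with all 6 arrays, and the box C/D small nucleolar RNAs keep their median of 0.23 without array 10.

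The same dose and time of Bay-11 in Raji had its own controls and called 161 genes (1.51%). Of the 66 genes called in DG75, 22 were called in Raji with the same sign and 0 with the opposite sign, which is 33.3% of the DG75 list and 13.7% of the Raji list. Of the 47 rises in DG75, 42 were above 0 in Raji, as were 51% of all genes, and 18 of the 19 falls were below 0. The shared falls included CXCL8 (-1.48 in DG75 and -1.09 in Raji), CD69 (-1.15 and -1.39), SGK1 (-0.95 and -0.82), TIPARP (-0.89 and -0.84) and DUSP10 (-0.94 and -0.84). The shared rises included SNORD46 (2.87 and 2.05), RNU11 (2.20 and 0.87), TMEM107 (2.01 and 1.596), RNU6ATAC (1.32 and 0.69) and HSPA1B (0.65 and 0.60).

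The difference of the Bay-11 effect between the lines was tested for every gene, and 0 passed limma's test, with 692 at an unadjusted p under 0.05. The lowest adjusted p was 0.104, shared by CDKN1A (0.25 in DG75 and -0.89 in Raji), PLEKHF1 (1.24 and 0.18), FOSB (-0.46 and -1.74), MYADM (0.42 and -0.92) and the death receptor gene FAS (0.34 and -0.76). For TINF2 (1.24 and 0.36), ID3 (0.90 and 0.06), NFKBIZ (-0.52 and 0.17) and CCL3L3 (-1.24 and -0.11) no difference between lines was called either. Without array 10, MIR181A2HG was called as differing between lines (difference -1.64, adjusted p = 0.0409), and without arrays 7 and 10, CCL3L3 (-1.34, adjusted p = 0.00422), FOSB (1.40) and MIR181A2HG (-1.62) were.

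The DG75 cells given TPCK, an alkylating chloromethyl ketone that inhibits chymotrypsin-like proteases, share the control arrays with the Bay-11 cells, and the doses differ (75 µM against 50 µM). TPCK against control called 53 genes (0.495%). Side by side, the changes after Bay-11 and after TPCK were -1.48 and -1.43 for CXCL8, -1.15 and -1.06 for CD69, 1.24 and 1.28 for TINF2 and 2.20 and 2.13 for RNU11. Tested directly, 20 genes differed between the compounds at these doses (0.187%), 3 higher and 17 lower after TPCK. Of the 17, 16 were small nucleolar or Cajal body RNAs, which made up 0.439% of genes tested. SNORD46 was 0.99 log2 units lower after TPCK than after Bay-11 (2.87 after Bay-11 and 1.88 after TPCK, adjusted p = 0.00852), and SNORD21 was 1.34 lower (0.89 and -0.45, adjusted p = 0.00205). SNORD38A was 1.89 lower (0.40 and -1.49, adjusted p = 6.63e-07), and RNU6ATAC was 1.18 higher after TPCK (1.32 and 2.50, adjusted p = 0.000274). Without array 7, a TPCK array on which 687 probes were detected that no other array detected, 12 genes differed, and with the 6 arrays of the 2 groups alone 0 did (431 at an unadjusted p under 0.05).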

How the data were processed

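RNA of the 18 samples was labelled with an Ambion MessageAmp kit and hybridised to Illumina bead arrays, per the labels' protocols. The authors deposited a raw table of log2 bead signals for 49576 probes, each with a detection p-value, per the file headers. Scanner software and build: not given in the sources used here. All 18 columns were tied to a group by their names, and 0 were left unused.

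Signals were background-corrected (normexp with detection p-values, offset 16) and quantile normalized (neqc, limma 3.58.1, R 4.3.3). Probes with a detection p under 0.01 on at least 3 arrays were kept (17652, of which 14195 had 1 gene symbol and 3457 none). Each of 10697 genes was represented by its brightest kept probe on average. Symbols came from the platform annotation, and 0 needed updating. Host genes came from a RefSeq gene table and promoters from RefSeq, both of GRCh38.p14. Group means were estimated over all 18 arrays (lmFit and eBayes, with 12 residual and 4.26 prior degrees of freedom, 11 residual without array 10). P-values were adjusted by the Benjamini-Hochberg method over all genes, and a gene is called at an adjusted p under 0.05.

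A gene undetected on all arrays of a group has only a bound there. Its fold is written "at least" and sets the brighter group's mean against a floor, which on each array is the probe's own value or, if higher, the dimmest detected signal.

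Members, gene lists, tests and the naming rule were chosen with earlier results of these data known. Named genes are, leaving out placeholder symbols and genes with overlapping groups, the 12 called genes that rose most and the 12 that fell most, up to 4 called members of each list, up to 6 genes a direction called only without array 10, and 34 fixed genes. CXCR4, SNORD14C, SNORD14D, SNORD15B, SNORD35A, TLR6, MYADM, FAS, host genes such as RPS2 and uncalled small RNAs were added once their values were known.

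A second table that the authors deposited (22789 probes, log2) carries replicate numbers. Of its DG75 columns 8 equal raw columns within 1e-06, while Bay-11 replicate 1 is centred near 0 on an unknown scale and was not used, and the table served only for a fit with the replicate number as a block. Alternatives were other normalizations, filters, moderation and array weights, fits on fewer arrays and all kept probes.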

Additional observations from a re-analysis of the deposited data

Results flagged for a closer look

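A signal was also seen in data that the gene comparisons do not use, the 3457 kept probes without a gene symbol. In a fit over all 17652 kept probes, 77 were called in DG75 after Bay-11. Of the 3457 unnamed ones 8 were higher and 10 were lower than in control, a share near that of all kept probes. Without array 10, 0 unnamed probes were called higher and 8 lower, and these 8 were called both ways. The largest falls of these were in ILMN_1816342 (from 8.63 to 6.33, change -2.30 ± 0.17, adjusted p = 2.35e-06) and ILMN_1730780 (from 6.93 to 4.75, change -2.18 ± 0.16, adjusted p = 2.35e-06), both larger than the fall of CXCL8. ILMN_1821517 was the brightest of the 8 on control arrays and fell from 12.88 to 11.71. Their genes are not named here.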

How the results depend on the processing

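The count of 66 genes ran from 15 to 1053 when single arrays were left out, and was 37 without arrays 7 and 10, 4 on the compared arrays alone, 6 on those without array 10, 157 with array weights (0.169 for array 10), 271 with median centring and 10 without normalization between arrays, where the median gene changed by 0.35. The 0 genes differing between lines became 0 to 1 with single arrays left out, 3 without arrays 7 and 10, 4 with array weights (CDKN1A, FOSB, MYADM and MIR181A2HG), 2 with trend and robust moderation and 2 without background correction (CDKN1A and FOSB both times), and 4 with all kept probes. The 20 genes differing between TPCK and Bay-11 became 12 to 30 with single arrays left out, 0 on the compared arrays alone, 8 with median centring and 5 without normalization.

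In the second deposited table, the fit with a replicate block over 8 DG75 columns (3 residual degrees of freedom) called 2 genes after Bay-11, SNORD46 and RNU11, against 11 without the block, and 10 between the compounds. Deviations of same-numbered Bay-11 and control columns correlated at -0.13 in both usable pairs. With only 2 usable Bay-11 columns in this table, their deviations from their own mean are mirror images. The correlations therefore cannot decide whether the numbers pair the samples. The main fit had no block. The names of the raw columns carry no replicate number, and the numbers of the 8 equal columns were not carried over to them. A block or pairing check on the raw table was not run. Of 34 named calls, 12 held in all 6 omissions of 1 array.

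Uncalled genes near 0 changed sign. With single arrays left out MT2A ran from -0.18 to 0.17, XIAP from -0.35 to 0.20, REL from -0.11 to 0.19, DNAJB1 from -0.033 to 0.38, FOS from -0.52 to 0.11, TNFAIP3 from -0.36 to 0.077 and JUN from -0.26 to 0.052. Median centring gave EGR1 0.11, FOS 0.057, GADD45A 0.21, GCLM 0.27, JUN 0.23, MT2A 0.30, REL 0.21, TNFAIP3 0.25 and XIAP 0.022. No normalization gave EGR1 0.11, FOS 0.059, GADD45A 0.215, GCLM 0.27, JUN 0.23, MT2A 0.31, REL 0.21, TNFAIP3 0.25 and XIAP 0.024. MT2A and XIAP were 0.17 and 0.20 on the compared arrays without array 10, 0.17 and 0.20 without arrays 7 and 10, 0.23 and 0.21 with the replicate block and 0.15 and 0.11 without it. Array weights gave MT2A 0.16 and NFKB1 -0.012, and REL was 0.0002 without background correction. The cause was not tested.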

Other observations

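Called genes outside the lists were mostly dim rises, and the genes here were chosen after their values had been seen. LIN37, a subunit of the cell cycle repressor complex DREAM, was detected on no control array and rose at least 1.26-fold (adjusted p = 0.00268), and it was also called without array 10. IL7R, the interleukin-7 receptor, rose by 0.87 ± 0.19 (adjusted p = 0.0463), and RNF43, a ubiquitin ligase that restrains Wnt signalling, rose at least 1.56-fold (adjusted p = 0.0237), and both were called with array 10 only. Among falls, ETNK1, an ethanolamine kinase, changed by -0.78 ± 0.14 (adjusted p = 0.0202), and 3 further probes of it gave -0.83, -0.11 and 0.10.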
